A study of Mus musculus with 12 samples.

Results

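The 8 genes described here are members of the epidermal growth factor receptor system, followed across sorted cells of the mouse dentate gyrus: the ERBB receptor genes Egfr, Erbb2, Erbb3 and Erbb4 and the inhibitor genes Lrig1, Lrig2, Lrig3 and Errfi1. They are 8 of the 50600 gene rows of the count table. All 8 were matched by Ensembl identifier, and they were selected on their measured values in these same libraries, so their levels and fold changes are given as a description without p-values. The study sorted cells from the dentate gyri of Nestin-GFP mice of 6 to 9 weeks, in which the Nestin promoter drives green fluorescent protein (GFP), and made limited-cell RNA-seq (lcRNA-seq) libraries from 50 cells each to compare the cell types of this niche. All sorted cells were live and lacked CD31, CD45, O1 and O4, and the mice of all 3 groups carried the same reporter and received no treatment named in the labels. Stem cells carried both GLAST (a glutamate transporter on the cell surface) and GFP, progenitors GFP alone and astrocytes GLAST alone. There were 4 libraries of each cell type. The study calls them biological replicates, but the labels do not tie a library to a mouse, and p-values measure the spread between these libraries.

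ERBB receptors are tyrosine kinases at the cell surface that pair up when a growth factor binds and signal through the RAS-ERK and PI3K-AKT pathways. EGFR binds EGF-type ligands, ERBB3 and ERBB4 bind neuregulins, ERBB2 has no known soluble ligand and serves as a partner, and ERBB3 has a weak kinase and depends on its partners. In neurogenic niches EGFR is known as a receptor of activated stem cells and dividing progenitors. LRIG1 is a transmembrane protein that promotes the breakdown of ERBB receptors, and ERRFI1 (MIG6) binds the kinase domain of the active receptor and blocks it. LRIG2 and LRIG3 are relatives of LRIG1. Their genes are grouped with the inhibitor genes here by family alone, and their action on the receptors was not tested.

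The receptors are paralogs, and so are the LRIG genes, so their sequences were compared to see whether reads could be shared. The longest stretches of identical bases between the coding sequences of members are shown because they set the limit for a read that could come from either gene. They were found in GENCODE M21 transcripts of GRCm38, each on the sense strand of both genes, with all bases in capitals because every base is shared.
Lrig1 and Lrig3: GCCTGGCAGAAGGATGGAGGCAC
Erbb2 and Erbb4: TCATGGTCAAATGTTGGATGAT
Egfr and Erbb2: GTCTACATGATCATGGTCAA
Erbb3 and Erbb4: CCAATTAAATGGATGGC
The longest run was 23 bases, between Lrig1 and Lrig3, and the longest between receptors was 22 bases, between Erbb2 and Erbb4. Egfr and Erbb3 shared no run above 14 bases. These runs are far shorter than the reads of the study, so the coding sequences of the members are told apart. The counting ignored strand, and 2.58% of the exonic bases of Lrig1 overlap Slc25a26 on the opposite strand, against 0.17% of Erbb2 with Mien1 and none for the other members.

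Total counts on genes ranged from 5357232 to 6253680 in astrocytes, from 9041498 to 12535028 in progenitors and from 5031166 to 10435711 in stem cells. Levels are counts per 1000000 counts on genes (CPM), on library sizes scaled by TMM factors, and 3 counts, taken as the floor of detection, correspond to 0.206 to 0.639 CPM. No molecular identifiers are named for these libraries, so the floor covers counting error only. The label of the progenitors was set against marker lists. The summed level of 6 oligodendrocyte precursor markers was 1925.4 to 3201.8 CPM in the progenitor libraries, against 43.1 to 320.6 in astrocytes and 63.7 to 143.9 in stem cells, and the highest of them was Olig1. The 6 immature neuron markers, led by Sox11, summed to 1000.3 to 1759.4 CPM in progenitors and to at most 568.5 in the other libraries. Mural cell markers, led by Vtn, summed to 2092.4, 39.6, 2148.9 and 923.5 CPM in progenitors a to d and to at most 191.6 elsewhere. Proliferating progenitor markers, led by Mcm2, summed to 173.2, 346.2, 81.4 and 59.9 CPM in progenitors a to d and to at most 49.1 elsewhere. Mature oligodendrocyte markers, led by the myelin gene Mbp, summed to 2901.4, 1287.9, 607.0 and 213.9 CPM in astrocytes a to d, against 94.0 to 130.8 in progenitors and 72.2 to 469.5 in stem cells. Mbp was higher in astrocytes than in progenitors (log2 fold change 3.85, SE 0.92, adjusted p = 0.0263 from edgeR). The marker lists were chosen with earlier results of these data known, so this p-value is no independent test. The progenitor libraries are called by their sort gate below, and the part of these other markers in the results was not tested. Astrocyte markers, led by Aldoc, summed to at least 17265.4 CPM in astrocytes, to 26842.7 or more for the stem cells and to 8434.2 or more for the progenitors. Neural stem cell markers, led by Gfap, summed to 1327.1 to 2063.3 CPM in stem cells, 967.4 to 1314.0 in astrocytes and 685.9 to 990.0 in progenitors. Inhibitory neuron, microglia and endothelial markers, led by Gad1, P2ry12 and Flt1, summed to at most 121.2, 110.7 and 97.9 CPM in a library. Nes, the gene whose promoter drives the reporter, had 0 counts in all 4 astrocyte libraries and at most 4 in a stem cell library, against 291, 1, 62 and 163 counts in progenitors a to d. Genes with at least 10 counts numbered 9430 to 11655 in an astrocyte library, 13368 to 14175 in a stem cell library and 16389 to 17015 in a progenitor library. The part of these unequal gene numbers in the comparisons was not tested.

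Egfr had its highest levels in the stem cells, and every stem cell library lay above every other library. Egfr (ENSMUSG00000020122.16) lies at chr11:16752203-16918158 on the forward strand of GRCm38. Its level was 128.5, 158.3, 126.6 and 113.7 CPM in stem cells 1 to 4, or 131.8 ± 18.9 (mean ± SD, n = 4). In astrocytes a to d it was 99.5, 70.1, 63.2 and 29.4 CPM (65.6 ± 28.8, n = 4), and in progenitors a to d 42.1, 68.2, 35.0 and 22.9 CPM (42.0 ± 19.1, n = 4). Astrocytes and progenitors overlapped. From astrocyte a to astrocyte d the Egfr levels had the same order as the summed mature oligodendrocyte markers. The immature neuron markers, at 568.5, 135.9, 83.3 and 43.1 CPM, had this order too. Neural stem cell markers, at 967.4, 1268.6, 1274.2 and 1314.0 CPM, ran in the reverse order. So did the proliferating progenitor markers, at 1.06, 3.84, 11.7 and 24.9 CPM, and the other marker lists had neither order. None of these named lists had the order of Egfr in stem cells 1 to 4, and the part of the markers in the Egfr levels was not tested. The mean level in stem cells was 3.13 times that of progenitors and 2.01 times that of astrocytes. On the log2 scale of the edgeR fit, progenitors over stem cells were at -1.69 (SE 0.33), astrocytes over stem cells at -1.01 (SE 0.52) and astrocytes over progenitors at 0.64 (SE 0.63). Fewer cells of a type in a pool and less RNA per cell cannot be told apart in libraries of pooled cells.

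Erbb2, the partner receptor, varied more between libraries of a cell type than between cell types. Erbb2 (ENSMUSG00000062312.5) lies at chr11:98412470-98437716 on the forward strand. Its level was 46.1, 1.3, 2.63 and 24.0 CPM in stem cells 1 to 4, 37.0, 0.418, 0.0924 and 7.74 CPM in progenitors a to d, and 0.426, 2.01, 34.2 and 0 CPM in astrocytes a to d. Each cell type had at least 1 library above 30 CPM and at least 1 below 2 CPM. The means were 18.5 ± 21.1 in stem cells, 11.3 ± 17.5 in progenitors and 9.15 ± 16.7 CPM in astrocytes (SD, n = 4 each), and in each case the SD was larger than the mean. The fitted log2 fold changes were -0.74 (SE 1.54) for progenitors over stem cells, -1.01 (SE 1.79) for astrocytes over stem cells and -0.28 (SE 1.98) for astrocytes over progenitors, each smaller than its SE.

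Erbb3, the neuregulin receptor with a weak kinase, was counted in progenitor libraries and in no other. Erbb3 (ENSMUSG00000018166.8) lies at chr10:128567523-128589652 on the reverse strand. It had 0 counts in the 4 astrocyte and the 4 stem cell libraries, where 3 counts would be 0.548 to 0.639 and 0.308 to 0.557 CPM. Progenitors b, c and d held 247, 148 and 152 counts, or 20.6, 13.7 and 13.1 CPM, whereas progenitor a held 1 count, or 0.0686 CPM, which is under the floor. Detection thus covered 3 of the 4 progenitor libraries. The progenitor mean of 11.9 ± 8.58 CPM (SD, n = 4) was at least 19.8-fold higher than in astrocytes and at least 29.1-fold higher than in stem cells, with 3 counts set for each library at the floor. With only 3 libraries over 10 counts, Erbb3 did not enter the fit.

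The levels of precursor and mural markers are given here beside those of Erbb3. Pdgfra, the platelet-derived growth factor receptor of oligodendrocyte precursors, stood at 395.7, 399.8, 866.4 and 664.0 CPM in progenitors a to d. Sox10, a transcription factor of the oligodendrocyte lineage, stood at 148.3, 113.5, 191.9 and 230.0 CPM. In astrocytes a to d, where Erbb3 had 0 counts, Pdgfra stood at 269.7, 6.76, 1.58 and 0.817 CPM and Sox10 at no more than 5.92 CPM. In the stem cells Pdgfra reached at most 5.25 CPM and Sox10 at most 2.97 CPM. Vtn was at 944.5, 1.25, 1516.9 and 782.1 CPM in progenitors a to d. Of the 6 precursor markers, 5 were called higher in progenitors than in stem cells and 4 higher than in astrocytes (edgeR, adjusted p under 0.05). Of all genes tested, 4.95% and 6.18% were called in these directions. The list was chosen with earlier results of these data known, so nothing is read from the number of markers called. One of them, Gpr17, entered the fit against astrocytes through the progenitors alone. Only 1 astrocyte library reached 10 counts of Sox10, and only 1 stem cell library did so for Pdgfra and for Cspg4. The progenitors met the count filter by themselves in these cases too, so the calls are a description. The part of precursor cells in the Erbb3 counts was not tested.

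**Figure D1:**
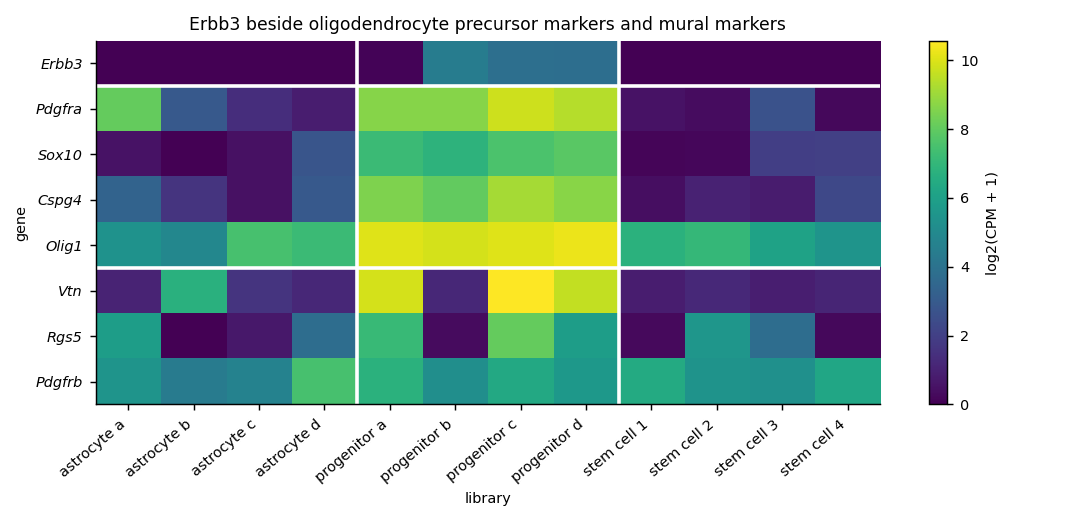
Levels of Erbb3 (top row), of 4 oligodendrocyte precursor markers (middle rows) and of 3 mural markers (bottom rows) as log2(CPM + 1), with the 12 libraries as columns and the colour bar giving the scale. Precursor markers are high in all 4 progenitor libraries, while Erbb3 is at 20.6, 13.7 and 13.1 CPM in progenitors b, c and d and at 0.0686 CPM in progenitor a.

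Erbb4, the neuregulin receptor with an active kinase, was counted in every library, with astrocyte a under the floor. Erbb4 (ENSMUSG00000062209.15) lies at chr1:68032186-69108059 on the reverse strand. Its level was 0.213, 12.4, 23.3 and 3.27 CPM in astrocytes a to d, 9.46, 4.34, 17.8 and 5.25 CPM in progenitors a to d, and 5.34, 3.52, 1.63 and 14.1 CPM in stem cells 1 to 4. The cell types overlapped in every comparison. Astrocytes over progenitors were at a log2 fold change of 0.11 (SE 1.25), progenitors over stem cells at 0.54 (SE 0.86) and astrocytes over stem cells at 0.67 (SE 1.38). Without TMM scaling the means of astrocytes and progenitors changed order, at 8.53 and 11 CPM.

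**Figure D2:**
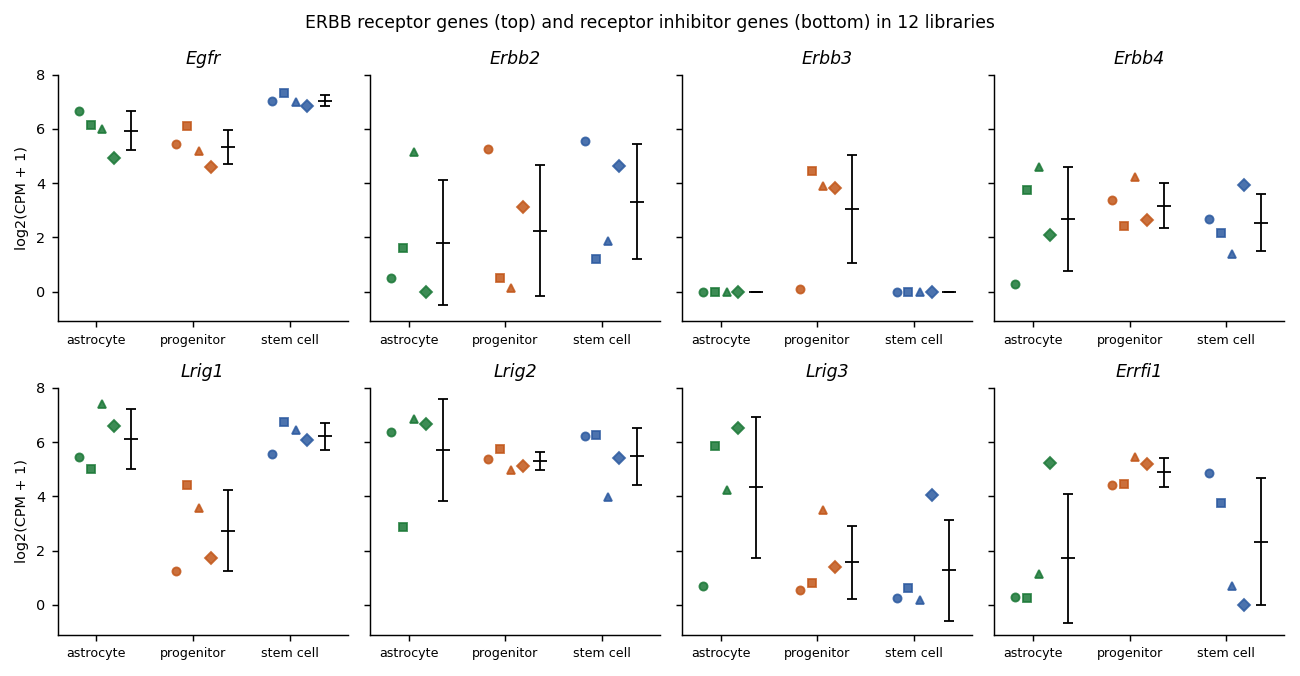
Level of each gene as log2(CPM + 1) (vertical axis) in the 4 libraries of each cell type (horizontal axis), with 1 point per library and the black bar giving the mean and SD of the logged values beside them. Circle, square, triangle and diamond are libraries a to d or 1 to 4 and pair nothing across cell types. The stem cell points of Egfr lie above all others, the progenitor points of Lrig1 lie below all others, and Erbb3 leaves 0 in progenitors alone.

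Lrig1, the inhibitor that promotes receptor breakdown, was low in progenitors, and every progenitor library lay below every astrocyte and stem cell library. Lrig1 (ENSMUSG00000030029.14) lies at chr6:94604529-94700158 on the reverse strand. Its level was 1.37, 20.2, 10.9 and 2.32 CPM in progenitors a to d (8.7 ± 8.79, SD, n = 4). In astrocytes a to d it was 42.2, 31.1, 170.3 and 95.0 CPM (84.6 ± 63.5, n = 4), and in stem cells 1 to 4 it was 46.8, 105.9, 86.4 and 67.2 CPM (76.6 ± 25.4, n = 4). The mean in astrocytes was 9.72 times and that in stem cells 8.8 times the mean in progenitors. The fitted log2 fold changes were 3.30 (SE 1.05) for astrocytes over progenitors and -3.18 (SE 0.79) for progenitors over stem cells. Astrocytes and stem cells overlapped, with a log2 fold change of 0.14 (SE 0.66), and without TMM scaling their means changed order, at 73.6 and 75 CPM. Progenitor b was the highest of the progenitors and lay under astrocyte b, the lowest astrocyte library.

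Lrig2, a relative of Lrig1, overlapped between all cell types. Lrig2 (ENSMUSG00000032913.13) lies at chr3:104396418-104511918 on the reverse strand. Its level was 81.6, 6.39, 115.7 and 101.9 CPM in astrocytes a to d (76.4 ± 48.7), 40.1, 52.0, 30.4 and 33.7 CPM in progenitors a to d (39.0 ± 9.5), and 73.8, 75.3, 14.9 and 41.8 CPM in stem cells 1 to 4 (51.4 ± 28.9, SD, n = 4 each). Astrocyte b and stem cell 3 fell below all progenitors, so no cell types were separated. Astrocytes over progenitors were at 0.97 (SE 0.79), progenitors over stem cells at -0.43 (SE 0.48) and astrocytes over stem cells at 0.56 (SE 0.86) on the log2 scale.

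Lrig3 was high in 3 astrocyte libraries and low in most others. Lrig3 (ENSMUSG00000020105.9) lies at chr10:125966168-126015359 on the forward strand. Astrocytes a to d held 0.639, 56.8, 18.0 and 91.1 CPM, progenitors a to d 0.48, 0.752, 10.4 and 1.63 CPM, and stem cells 1 to 4 held 0.205, 0.521, 0.125 and 15.4 CPM. Astrocyte a lay among the low libraries, so the cell types overlapped. The astrocyte mean was 12.5 times that of progenitors and 10.2 times that of stem cells, with log2 fold changes of 3.65 (SE 1.53) and 3.33 (SE 1.80). Lrig3 did not enter the fit of progenitors against stem cells, with too few libraries over 10 counts.

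Errfi1, the kinase inhibitor, was detected in all progenitors and unevenly elsewhere. Errfi1 (ENSMUSG00000028967.10) lies at chr4:150853919-150868892 on the forward strand. Progenitors a to d held 20.2, 21.1, 43.2 and 35.7 CPM (30.1 ± 11.3, SD, n = 4), astrocytes a to d 0.213, 0.183, 1.19 and 36.1 CPM, and stem cells 1 to 4 held 27.7, 12.6, 0.625 and 0 CPM. Astrocyte d and stem cell 1 reached the progenitor range, so neither comparison was free of overlap. The progenitor mean was 3.19 times that of astrocytes and 2.94 times that of stem cells. The log2 fold changes were -1.67 (SE 1.53) for astrocytes over progenitors and 1.52 (SE 1.23) for progenitors over stem cells. Without astrocyte d the former was -5.78 (SE 1.23). Errfi1 had too few libraries over 10 counts for the fit of astrocytes against stem cells.

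**Figure D3:**
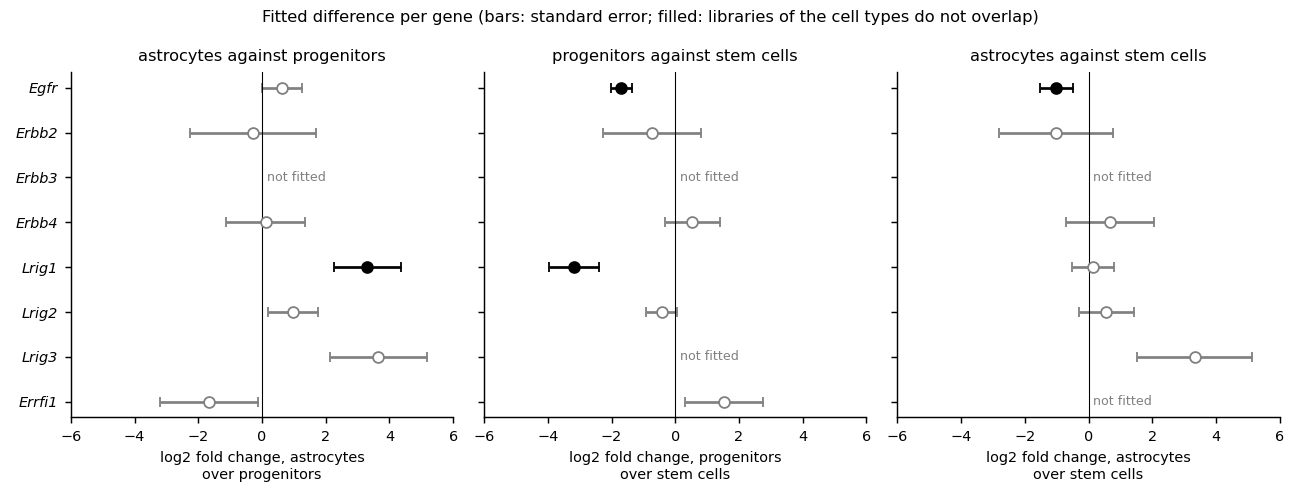
Fitted log2 fold change (horizontal axis) of each gene (vertical axis) in the 3 comparisons, with bars for the standard error, filled points where the libraries of the cell types do not overlap and open grey points where they do. Egfr lies at -1.69 and Lrig1 at -3.18 for progenitors over stem cells, and Lrig1 lies at 3.30 for astrocytes over progenitors.

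The calls of the whole-table fit give the scale of these differences. In astrocytes against progenitors, 2.45% of the 14806 genes tested were called higher and 6.18% lower in astrocytes at an adjusted p under 0.05 (quasi-likelihood F-test in edgeR, adjusted by Benjamini and Hochberg), and 5.84% and 15.2% were higher or lower without overlap of the libraries. Of the 7 members tested, 0 were called, 2 had an unadjusted p under 0.05 and DESeq2 called 2, while Lrig1 alone was higher without overlap. In progenitors against stem cells, 4.95% of 15427 genes were called higher and 3.66% lower in progenitors, and 11.8% and 7.5% did not overlap. Of the 6 members tested, Egfr and Lrig1 were called lower and did not overlap, and no other was called. The call of Egfr held in 8 of 8 fits that left out 1 library. That of Lrig1 held in 3 of 8 and was lost without progenitor c, progenitor d, stem cell 2, stem cell 3 or stem cell 4. Both calls were lost in the fit of all 12 libraries together. In astrocytes against stem cells, 0.0468% of 12831 genes were called higher and 0.0% lower, where 1226 genes had an unadjusted p under 0.05 and DESeq2 called 635, and 3.69% and 6.28% did not overlap. Of the 6 members tested there, 0 were called by either tool, 0 had an unadjusted p under 0.05, and Egfr alone was lower without overlap. Since the members were selected on these values, nothing is read from their counts or their calls. A call that held in other fits of the same libraries is no support either. The astrocyte, progenitor and stem cell libraries each enter 2 of the comparisons. The median log2 fold change of all genes was 0.03, 0.04 and 0.14 in the 3 comparisons.

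Levels of different genes were set side by side as CPM per kilobase of annotated exon. The spread named here is the SD of each gene between libraries, which ignores that the genes were counted in the same libraries. In stem cells the order of the mean levels per kilobase was Lrig1 (13.7 ± 4.55), Egfr (11.6 ± 1.67), Lrig2 (4.38 ± 2.45), Erbb2 (3.55 ± 4.05), Errfi1 (2.86 ± 3.63), Erbb4 (0.498 ± 0.447), Lrig3 (0.487 ± 0.907) and Erbb3 at 0 (SD, n = 4). Lrig1 and Egfr differed by less than their spread, and so did the neighbours from Lrig2 to Lrig3. In progenitors Errfi1 came first at 8.4 ± 3.15, followed by Egfr (3.71 ± 1.69), Lrig2 (3.32 ± 0.809), Erbb2 (2.17 ± 3.35), Erbb3 (1.97 ± 1.43), Lrig1 (1.56 ± 1.57), Erbb4 (0.746 ± 0.498) and Lrig3 (0.399 ± 0.571). From Egfr to Lrig3 the means of neighbours differed by less than the spread, although Erbb4 lay above Lrig3 in every progenitor library. The mean of Errfi1 exceeded that of Egfr by more than the spread, but in progenitor b Errfi1 (5.9) lay under Egfr (6.02). In astrocytes Lrig1 came first at 15.2 ± 11.4, then Lrig2 (6.5 ± 4.15), Egfr (5.79 ± 2.54), Lrig3 (4.99 ± 4.85), Errfi1 (2.63 ± 4.97), Erbb2 (1.76 ± 3.21), Erbb4 (0.793 ± 0.841) and Erbb3 at 0. No means of neighbours from Lrig1 to Erbb4 differed beyond their spread. Within every astrocyte library, however, Lrig1 lay above Lrig2 and Lrig3 above Errfi1.

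The make-up of the receptor transcripts followed these levels in each library. Egfr made up 54.9% to 96.3% of the summed receptor level per kilobase in stem cells, 39.8% to 98.9% in astrocytes and 32.1% to 60.9% in progenitors. The receptor sum was 11.8 to 20.6 CPM per kilobase in stem cells, 6.1 to 11.6 in progenitors and 2.86 to 14 in astrocytes. Erbb3 gave 34.7%, 33.3% and 35.5% of the sum in progenitors b, c and d. In progenitor a, where Erbb3 was under the floor, Erbb2 gave 61.2%. Among the inhibitors, Errfi1 gave 42.1% to 74.1% of the sum in progenitors and Lrig1 gave 2.63% to 25.8%. In stem cells Lrig1 gave 37.4% to 91.4%, and in astrocytes 36.4% to 71.2%.

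**Figure D4:**
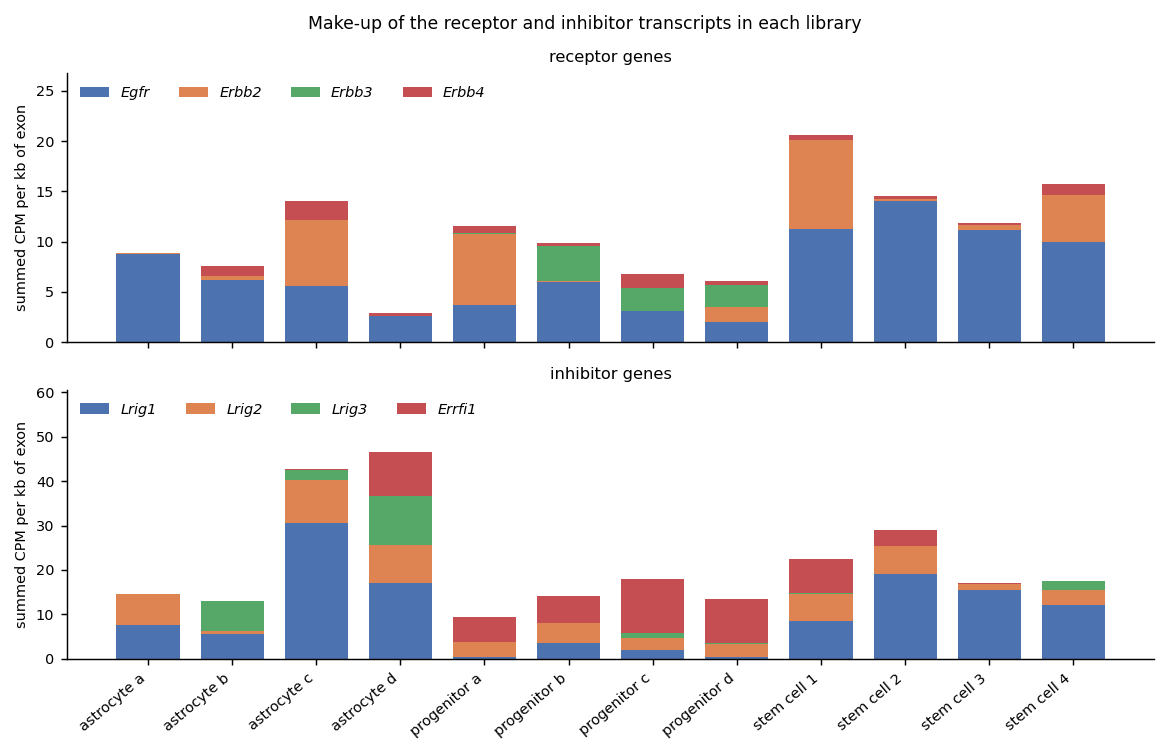
Summed level of the receptor genes (upper panel) and of the inhibitor genes (lower panel) in CPM per kilobase of exon (vertical axes) for the 12 libraries (horizontal axis), stacked by gene. Egfr fills most of the receptor bar in stem cells 2 and 3, at 96.3% and 94.6%, and Errfi1 is the largest inhibitor segment in all 4 progenitor libraries.

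The sequences upstream of Egfr and Lrig1 are shown because these were the fitted members whose stem cell and progenitor libraries did not overlap. They come from RefSeq on GRCm38.p6, run 5′ to 3′ on the strand of the gene up to its annotated start, and have matches to the searched motifs in capitals. Egfr is chr11:16751953-16752202 on the forward strand and Lrig1 is chr6:94700159-94700395 on the reverse strand.
Egfr: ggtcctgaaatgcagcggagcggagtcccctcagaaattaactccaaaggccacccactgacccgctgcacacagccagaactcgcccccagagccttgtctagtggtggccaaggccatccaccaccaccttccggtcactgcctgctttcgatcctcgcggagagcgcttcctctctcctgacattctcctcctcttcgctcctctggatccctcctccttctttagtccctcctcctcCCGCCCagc
Lrig1: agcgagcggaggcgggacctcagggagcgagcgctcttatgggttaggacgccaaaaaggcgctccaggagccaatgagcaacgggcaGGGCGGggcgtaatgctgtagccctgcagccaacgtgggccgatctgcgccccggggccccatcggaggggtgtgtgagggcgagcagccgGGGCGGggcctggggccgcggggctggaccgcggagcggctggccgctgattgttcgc
Both strands were searched for the GC box GGGCGG, the TATA box TATAAA, the cyclic AMP response element TGACGTCA and the AP-1 site TGANTCA. In the 250 bases upstream of 32851 RefSeq promoters, these were found in 32.7%, 12.4%, 1.55% and 6.75%. The 250 bases printed for Egfr held 1 GC box, on the reverse strand, and 60.8% G and C. The 237 bases printed for Lrig1 held 2 GC boxes and 71.7% G and C, and neither stretch held another of the motifs. Entries were found for 7 of the 8 members, all but Erbb3. These matches describe letters and not binding.

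For 7 of the 8 members, all but Erbb3, which had at least 10 counts in only 3 libraries, the 3 protein-coding genes with the most similar pattern were taken by Pearson's r of log2(CPM + 1) over the 12 libraries among 12589 genes, as a description. These libraries share their cell type and depth, and neighbours of the sparse members rest on few counts. Egfr was followed most closely by Irak2 (r = 0.93), a member of the IRAK family of interleukin-1 and Toll-like receptor signalling, Smim4 (0.88) and Rasa2 (0.88), a RAS GTPase-activating protein. Lrig1 was followed by Ccdc13 (0.91), Tbc1d19 (0.88) and Slc4a4 (0.88), a sodium bicarbonate cotransporter of astrocytes. Slc4a4 had a mean of 687.0 CPM in astrocytes, 194.5 in progenitors and 654.7 in stem cells. The leading neighbours were Ropn1l for Erbb2 (0.94), Scamp2 for Erbb4 (0.92), Recql5 for Lrig2 (0.94), Ylpm1 for Lrig3 (0.94) and Hspbap1 for Errfi1 (0.97). The other neighbours were Gfod1 and Inhba for Erbb2, Adipor2 and Mapkapk2 for Erbb4, Pick1 and Parva for Lrig2, Nxpe2 and Enah for Lrig3, and Zfp708 and Zfand3 for Errfi1, with r from 0.82 to 0.96. Among the members themselves, Egfr and Lrig1 had r = 0.60, and Egfr and Errfi1 had r = -0.54.

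The other genes of the pathway were taken from 9 lists with 61 genes. These lists were chosen with earlier results of these data known. The adjusted p-values given for their genes below are thus a description and no independent test. In astrocytes against progenitors 54 were tested, and 1 was called higher and 5 lower in astrocytes, where 2.45% and 6.18% of all genes tested were called. Of the lower ones, Nrg1, Spry1 and Spry4 entered the fit through the progenitors alone. Tgfa, also among them, had 10 counts in only 1 astrocyte library. In progenitors against stem cells 54 were tested, and 7 were called higher and 2 lower in progenitors, where 4.95% and 3.66% of all genes tested were called. Nrg1 and Spry1, among those higher, entered this fit through the progenitors alone. Nothing is therefore read from the counts of calls in these 2 comparisons. In astrocytes against stem cells 49 were tested and 0 were called by edgeR, against 0.0468% and 0.0% of all genes tested, and 5 had an unadjusted p under 0.05 and DESeq2 called 5. The median log2 fold change of the tested pathway genes was -0.25, 0.26 and 0.23 in the 3 comparisons.

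Among the EGF-type ligands, Hbegf, which encodes the membrane-anchored ligand HB-EGF, had the highest mean level. It was at 127.6, 137.3, 105.9 and 95.7 CPM in stem cells 1 to 4, at 50.7, 40.5, 46.6 and 37.8 CPM in progenitors a to d and at 37.7, 52.2, 67.0 and 95.2 CPM in astrocytes a to d. Every stem cell library lay above every other library, as for Egfr. Hbegf was lower in progenitors than in stem cells, with a log2 fold change of -1.44 (SE 0.23, adjusted p = 0.00464 from edgeR), and this call was lost in the fit of all 12 libraries (0.117). Astrocytes over stem cells were at -0.90 (SE 0.51, adjusted p = 0.665 from edgeR), and the gap between astrocyte d at 95.2 and stem cell 4 at 95.7 CPM was small.

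Tgfa, which encodes another EGFR ligand, stood at 47.3, 31.7, 51.5 and 32.9 CPM in progenitors a to d and at 0.213, 3.11, 0.593 and 0 CPM in astrocytes a to d. It was called lower in astrocytes by edgeR, at a log2 fold change of -5.35 (SE 1.39). Only 1 astrocyte library reached 10 counts, and the 4 progenitor libraries met the count filter by themselves. The call is therefore a description, given without a p-value. Stem cells 1 to 4 held 0, 2.35, 24.5 and 23.4 CPM, and progenitors over stem cells were at 1.65 (SE 1.16, adjusted p = 0.488 from edgeR). The call of Tgfa against astrocytes was lost without astrocyte c and without any 1 of progenitors a to d. It was also lost in the fit of all 12 libraries, without a count filter and after thinning to the smallest library. Egf reached at most 33.1 CPM in a library, and Areg, Ereg and Epgn had at most 1 count in any library.

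Nrg1, which encodes the neuregulin that binds ERBB3 and ERBB4, was counted in progenitors at 27.1, 33.1, 21.6 and 7.91 CPM in a to d. It had 0 counts in the 4 stem cell libraries and 1 count in astrocyte b as the highest of the astrocytes. The progenitor level was at least 37.5-fold higher than in astrocytes and at least 55-fold higher than in stem cells. No astrocyte or stem cell library reached 10 counts, so Nrg1 entered both fits through the progenitors alone. Its calls in both are therefore a description, given without p-values. Progenitor a, with Erbb3 under the floor, held 395 counts of Nrg1. Nrg4 reached at most 16.8 CPM, Nrg2 1.84 and Nrg3 4.43 CPM in any library.

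**Figure D5:**
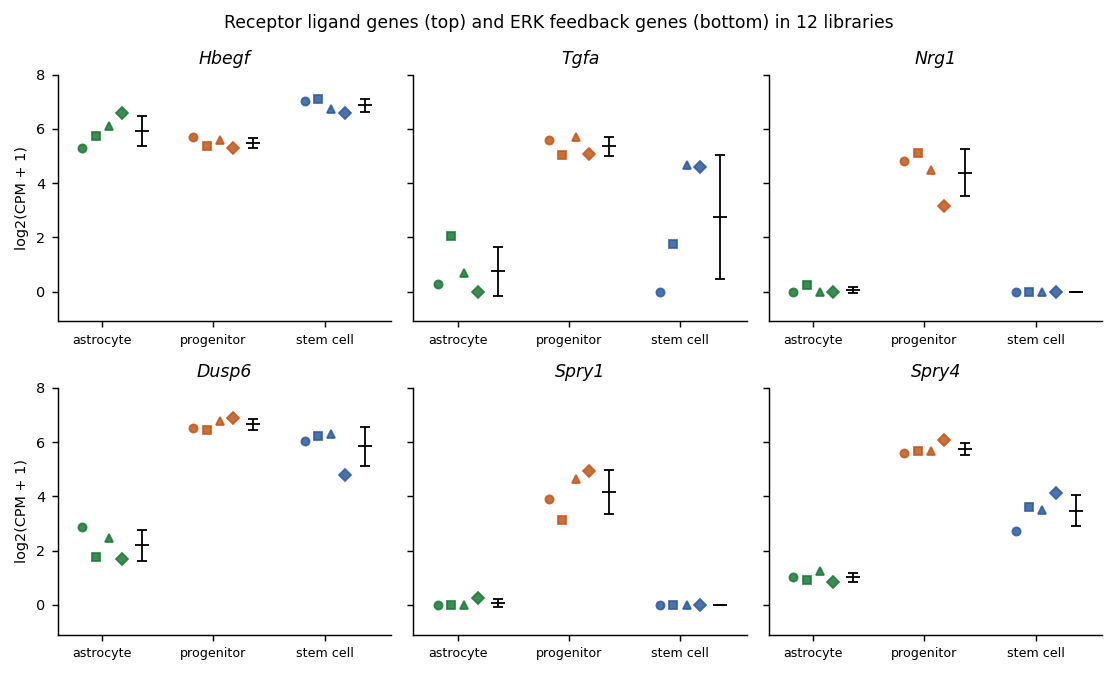
Levels of 3 receptor ligand genes (upper row) and 3 ERK feedback genes (lower row) as log2(CPM + 1) (vertical axes) in the 4 libraries of each cell type (horizontal axes), with 1 point per library and the mean and SD of the logged values in black. Nrg1 and Spry1 are at or near 0 outside progenitors, Dusp6 and Spry4 are lowest in astrocytes, and Hbegf is highest in stem cells.

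Of the 4 genes that shed ligands from the membrane, 3 were tested and 0 were called in each comparison by edgeR, with 0 at an unadjusted p under 0.05 and 0 called by DESeq2. Rhbdf1, which encodes an inactive rhomboid that helps the protease ADAM17, had the highest mean at 43.8 CPM over the 12 libraries, and Rhbdf2 had 0 counts throughout. Of the 7 genes of receptor turnover, Sh3kbp1, an adaptor of CBL-driven receptor uptake, was higher in progenitors than in stem cells, at a log2 fold change of 1.94 (SE 0.52, adjusted p = 0.0459 from edgeR). That call was lost in 7 of 8 fits that left out 1 library, with an adjusted p of up to 0.121 from edgeR without progenitor c. Of these fits it held only in that without stem cell 2. It was lost as well in the fit of all 12 libraries, without a count filter and after thinning, with an adjusted p of up to 0.449 from edgeR. Nedd4, a ubiquitin ligase, had the highest mean of this list at 446.4 CPM. Among 6 other regulators at the receptor, Ptprk, a receptor tyrosine phosphatase, stood at 82.1, 74.9, 56.6 and 87.5 CPM in progenitors a to d and at no more than 2.48 CPM in stem cells. It was higher in progenitors at a log2 fold change of 5.83 (SE 0.67, adjusted p = 0.00112 from edgeR), a call lost in the fit of all 12 libraries (0.0537). In astrocytes a to d Ptprk varied widely, at 300.5, 5.11, 69.5 and 0.408 CPM.

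Of the 7 adaptor genes, 0 were called in any comparison by edgeR, with 0 at an unadjusted p under 0.05 and 0 called by DESeq2. Ptpn11, which encodes the phosphatase SHP2, had the highest mean of these at 66.2 CPM. Of the 10 genes from RAS to ERK, Hras was higher in astrocytes than in progenitors, at 134.4, 44.4, 40.5 and 65.4 CPM against 2.26, 1.59, 6.19 and 0.688 CPM (log2 fold change 4.71, SE 0.98, adjusted p = 0.0166 from edgeR). That call was lost without progenitor a (adjusted p = 0.0525 from edgeR) and without progenitor b (0.0528). Astrocyte a, with the highest Hras level, also had the highest astrocyte sums of mature oligodendrocyte, immature neuron and oligodendrocyte precursor markers. In astrocytes b to d Hras did not follow the order of the mature oligodendrocyte sums, which were lowest in astrocyte d. The part of these markers in the difference was not tested.

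Of the 8 PI3K-AKT genes, Pik3r2, a regulatory subunit, was higher in progenitors than in stem cells, at a mean of 70.2 against 13.7 CPM (log2 fold change 2.31, SE 0.51, adjusted p = 0.019 from edgeR). Without progenitor c its adjusted p was 0.0648 and without progenitor d it was 0.0544 in edgeR's test, and in the fit of all 12 libraries it was 0.312. Pik3r1 had the highest mean of the list at 269.3 CPM and was not called.

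ERK feedback genes, which ERK signalling is known to induce, were called in both directions. Of the 8 tested, 0 were called higher and 3 lower in astrocytes than in progenitors, where 2.45% and 6.18% of all genes tested were called. Spry1 and Spry4, both among the lower ones, entered this fit through the progenitors alone. In progenitors against stem cells 2 of 8 were called higher and 1 lower, where 4.95% and 3.66% of all genes tested were called. Spry1, among those higher, entered through the progenitors alone, so nothing is read from these counts of calls. In astrocytes against stem cells 7 were tested and 0 were called by edgeR, with 2 at an unadjusted p under 0.05 and 2 called by DESeq2. Dusp6, a phosphatase of ERK, stood at 91.1, 85.6, 108.1 and 116.1 CPM in progenitors a to d and at 6.39, 2.37, 4.54 and 2.25 CPM in astrocytes a to d (log2 fold change of astrocytes over progenitors -4.69, SE 0.70, adjusted p = 0.00735 from edgeR). In stem cells 1 to 4 it was at 65.6, 74.4, 77.6 and 26.4 CPM, and astrocytes over stem cells were at -3.97 (SE 0.94, adjusted p = 0.0974 from edgeR). This last difference was called by DESeq2, in the fit of all 12 libraries and with 10 counts in every library. Spry4, a Sprouty inhibitor of RAS-ERK signalling, was at 46.9, 50.2, 49.5 and 67.0 CPM in progenitors, at 5.54, 11.1, 10.3 and 16.3 CPM in stem cells and at no more than 1.38 CPM in astrocytes. It was lower in astrocytes than in progenitors at -5.65 (SE 0.86). There it entered the fit through the progenitors alone, and its call is a description. Spry4 was higher in progenitors than in stem cells at 2.26 (SE 0.43, adjusted p = 0.00968 from edgeR). That call was lost in the fit of all 12 libraries (adjusted p = 0.129 from edgeR).

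Spry1 was counted in progenitors at 14.1, 7.85, 24.0 and 29.8 CPM in a to d, with 0 counts in stem cells and at most 1 in astrocytes. It was at least 31.6-fold higher in progenitors than in astrocytes and at least 46.4-fold higher than in stem cells. Spry1 too entered both fits through the progenitors alone, and its calls are a description. Spred1, another inhibitor of RAS activation, was lower in progenitors, at a mean of 17.3 CPM in progenitors and 50.1 CPM in stem cells (log2 fold change -1.57, SE 0.37, adjusted p = 0.0264 from edgeR). Its call was lost in 6 of 8 fits that left out 1 library, those without progenitor a, b, c or d, stem cell 2 or stem cell 4, with an adjusted p of up to 0.0766 from edgeR. It was lost too in the fit of all 12 libraries and without a count filter (up to 0.355 from edgeR). The mean level in astrocytes, progenitors and stem cells was 34.6, 11.1 and 22.8 CPM for Spry2, a relative of Spry1. It was 73.0, 31.4 and 66.5 CPM for Etv4 and 140.9, 85.2 and 113.1 CPM for Etv5, a pair of ETS transcription factors. Like Spred1, whose astrocyte mean was 71.5 CPM, these 3 had their lowest mean in progenitors, and none of the 3 was called in any comparison by edgeR. The progenitor libraries that held these higher levels also held the precursor, immature neuron, proliferation and mural markers given above, and the part of such cells in these differences was not tested.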

How the data were processed

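The authors deposited raw counts per gene, whole numbers without normalization. They trimmed adapters with AdapterRemoval, discarded ribosomal, mitochondrial and PhiX reads, mapped the rest to GRCm38.p4 by HISAT2 2.0.6 and obtained unstranded gene counts from featureCounts and the GENCODE M14 annotation. The submitters' processing notes also name CASAVA 1.8.2. cDNA was preamplified with SMARTer v4 chemistry and made into Nextera XT libraries, so uneven amplification of rare transcripts enters the counts. All 12 columns were used. Stem cell columns are numbered. Those of the other cell types are not, and letters a to d name them here. Of 50600 rows, 50376 matched a symbol in GENCODE M21 on GRCm38, the build of the alignment.

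Libraries of a cell type differed by far more than sampling noise (at least 56.4 in chi-square over its degrees of freedom). Each pair of cell types was tested on its own 8 libraries with edgeR 4.0.16 in R 4.3.3 (TMM, quasi-likelihood test, at least 10 counts in at least 4 libraries, Benjamini-Hochberg threshold 0.05 over all genes tested; at least 3 libraries where 1 was left out). Alternatives were DESeq2-type size factors, DESeq2 1.42.0 (the tool of the study), a joint fit of all 12 libraries, no filter, a filter of 10 counts in each of the 8 libraries, thinning to the smallest depth, leaving out each library, and CPM without TMM factors. Where no library of a group exceeded 3 counts, folds were computed with 3 counts per library and are lower bounds. Both tools were tested on simulated data. The CLEAR filter of the study needs base coverage and was not run. Tables and figures used matplotlib 3.10.9, pandas 2.3.3 and numpy 2.4.6 under Python 3.11.15.

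The members, the pathway lists and the marker lists were chosen with earlier results of these data known. Genes are named by a rule: the 8 members, pathway genes called in any comparison, the gene of highest mean CPM in each list, and the 3 closest neighbours of each member with at least 10 counts in at least 4 libraries. Nes, Pdgfra, Sox10, Rgs5 and other single markers, ligands or feedback genes beyond it were named after their values were seen. A pathway gene and a shared sequence stretch are not reported here.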

Additional observations from a re-analysis of the deposited data

Results flagged for a closer look

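In 22 groups of 4 libraries a member was over the floor. The highest or lowest library stood apart by Dixon's criterion (the gap to its neighbour as a share of the range) in 4 cases. The criterion was applied to unlogged CPM. Its chance rate of about 1 in 20 holds for normally distributed values, and 1 high library beside others near the floor departs from that. No excess over chance is read from the 4 cases. Erbb2 was at 34.2 CPM in astrocyte c, with the other astrocytes at no more than 2.01 CPM. Lrig3 was at 10.4 CPM in progenitor c, with the other progenitors at no more than 1.63 CPM. Lrig3 was also at 15.4 CPM in stem cell 4, with the other stem cells at no more than 0.521 CPM. Errfi1 was at 36.1 CPM in astrocyte d, with the other astrocytes at no more than 1.19 CPM. In all 4 cases the library apart was the highest. The cause was not tested.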

How the results depend on the processing

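No paired analysis was possible because the astrocyte and progenitor columns carry no replicate numbers. Over the alternatives that kept all libraries, none of the 105 member log2 fold changes moved by 1 SD between libraries or turned its sign. Egfr and Lrig1 in progenitors against stem cells were past the threshold in 5 of 6 of these, all but the fit of all 12 libraries. All refits reuse the libraries on which the members were selected, so they describe stability and give no support. With 1 library left out, 148 of 152 moved by less than 1 SD, Egfr stayed past the threshold in 8 of 8 fits and Lrig1 in 3 of 8. Lrig1 was under it at -3.29, -2.85, -2.99, -3.12 and -3.23 without progenitor c, progenitor d, stem cell 2, stem cell 3 and stem cell 4. The ranges with 1 library left out were -3.78 to 1.73 for Erbb2 and -5.78 to -1.26 for Errfi1 in astrocytes against progenitors, and -4.50 to -0.03 for Erbb2 and 2.58 to 7.10 for Lrig3 in astrocytes against stem cells. The extremes came without astrocyte c for Erbb2 (-3.78 and -4.50), without astrocyte d for Errfi1, which was then called, and without stem cell 4 for Lrig3. The sign turned in 4 of 8 such fits for Erbb2 and for Erbb4 (-0.79 to 0.62) in astrocytes against progenitors, in 2 of 8 for Lrig1 (-0.47 to 0.41) and 1 of 8 for Erbb4 (-0.25 to 1.48) in astrocytes against stem cells, and in 1 of 8 for Erbb2 (-2.76 to 0.23) in progenitors against stem cells.

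Counts of calls depended more on the setting. Of all genes, astrocytes against progenitors had 1278 calls, with 2431 by DESeq2 (952 higher, 1479 lower in astrocytes), 529 without a count filter and 287 (191 higher, 96 lower) with 10 counts in every library. Progenitors against stem cells had 1327 calls, with 2394 by DESeq2 and 445 with all 12 libraries in one fit. Astrocytes against stem cells had 6, with 635 by DESeq2, 16 without a filter, 12 with 10 counts in every library and 343 with all 12 libraries in one fit. With 1 library left out these counts ranged from 719 (without progenitor c, and 794 without progenitor d) to 1871, from 830 (without progenitor d) to 1383, and from 0 (without stem cell 3 or 4, and 3 without stem cell 1) to 8. Pathway calls in astrocytes against progenitors were 6, with 12 by DESeq2 and 2 with 10 counts in every library. In progenitors against stem cells they were 9, with 2 with all 12 libraries in one fit and 5 to 9 with 1 left out (5 without progenitor c or d). In astrocytes against stem cells they were 0, with 5 by DESeq2, 1 with 10 counts in every library and 3 with all 12 libraries in one fit. The filter of 10 counts in every library tests fewer genes (5862, 9773 and 5662), and the cause of the other changes was not tested. No fold of a called pathway gene in the comparison of its call turned its sign, nor did the uncalled folds of Hbegf, Tgfa, Dusp6 and Spry4 given above. The signs of the other named pathway genes were not checked. For members near the floor, depth limits what can be seen: 3 counts in a library, the floor of detection, correspond to 0.206 to 0.639 CPM. This floor applies to a level in 1 library and is not the smallest difference between cell types that could be seen.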
